A study of Mus musculus with 12 samples.

Results

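The genes that encode the enzymes of phase II conjugation were examined in MYC-ON livers and HCC53N xenografts of mice fed a control diet or a diet without tryptophan (No-Trp diet). Members were the rows of the count tables whose symbols name a glutathione S-transferase of the alpha, kappa, mu, omega, pi, sigma, theta or zeta class (Gst), a UDP-glycosyltransferase of families 1 to 3 (Ugt) or a sulfotransferase of families 1 to 6 (Sult), plus Gm4794. They came to 60 of 24062 gene rows, with 21 Gst, 20 Ugt and 19 Sult genes. Gm4794 is the older symbol of Sult3a2 and was counted with the sulfotransferases. Poly(A) RNA was sequenced from 12 mice, with 1 library from each and 3 mice in each group. The livers came from LAP-tTA/TRE-MYC males on the FVB background, in which tTA under the hepatocyte promoter LAP turns on human MYC from birth once doxycycline is withdrawn. The MYC transgene is on the Y chromosome, so all of these mice were male, and every liver of both diets carried it. The labels give an age of 45 days for a comparison of MYC-ON with wild-type mice and no separate age for the diet groups. The xenografts were grown from HCC53N cells, a single line derived from mouse liver tumors lacking p53 and expressing mutant NRAS, under the skin of female hosts labelled NOD-SKID (NOD SCID mice). The labels give these tumor cells the genotype FVB MYC ON as well, which the methods of the study do not state. Both diets were fed for 21 days. Below, values of 3 libraries are listed in the order of mice 101, 102 and 103 for control livers, 105, 107 and 108 for No-Trp livers, 40, 41 and 43 for control xenografts and 35, 36 and 37 for No-Trp xenografts.

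Conjugation makes lipophilic compounds water-soluble so that they can leave the liver in bile or blood. Glutathione S-transferases join glutathione to electrophiles, UDP-glucuronosyltransferases transfer glucuronic acid from UDP-glucuronic acid to bilirubin, steroids and drugs, and sulfotransferases transfer sulfate from the donor PAPS to phenols, steroids and bile acids. In adult liver these genes are most active in hepatocytes, and several Sult genes are known to differ between male and female mice.

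Levels are given in CPM, the usual scale of a gene's reads relative to the size of its library, here the size after TMM scaling. Reads on genes ranged from 14660963 to 26085349 per library with a median of 21659304. The labelled tissues were checked against marker genes. Alb, the serum albumin made by hepatocytes, was at 6257, 25596 and 4522 CPM in the control livers and at 39224, 88176 and 30217 CPM in the No-Trp livers. In the xenografts Alb reached only 344, 74.8 and 289 CPM on the control diet and 286, 231 and 82.6 CPM on the No-Trp diet, while Spp1, a cholangiocyte marker, was at 2311 to 9961 CPM, against 68.4 to 142 CPM in the livers. The HCC53N tumors were thus low in hepatocyte markers, although Hnf4a, a transcription factor of hepatocytes, was still at 151 to 315 CPM. The 7 cholangiocyte markers examined, Spp1 among them, did not all go the same way. On the control diet 4 were higher and 1 lower in the xenografts than in the livers, by the thresholds given below. Control liver 102 stood apart from the other 2 control livers. Its summed hepatocyte markers were at 45887 CPM against 16541 and 13453 CPM, and its male-biased liver genes at 3926 CPM against 232 and 156 CPM. Sums, counts of calls and the fold changes that moved most in the livers are therefore also given without this mouse. In bulk tissue, fewer cells of a type and less RNA per cell cannot be told apart.

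Conjugation genes were higher in MYC-ON livers on the No-Trp diet than on the control diet. The 60 members summed to 1943, 3909 and 1573 CPM in the control livers and to 6546, 9008 and 7658 CPM in the No-Trp livers. All 3 No-Trp livers were above all 3 control livers, and control liver 102 was the highest of its group. The sum of the glutathione S-transferases went from 1627 ± 509 to 4858 ± 660.1 CPM (mean ± SD, n = 3) and that of the sulfotransferases from 247 ± 128 to 821 ± 180.1 CPM. That of the UDP-glycosyltransferases was 227, 1336 and 239.6 CPM in the control livers (601 ± 637) and 1774, 2678 and 1726 CPM in the No-Trp livers (2059 ± 536). The ratio of the means was 3.43 for the Ugt genes with all controls and 8.82 without control liver 102, against 2.98 and 3.60 for the Gst genes and 3.32 and 4.72 for the Sult genes. Of the 60 members, 45 had enough reads in the livers to be tested, and 18 were called higher and 0 lower, where a call needs an adjusted p up to 0.05 together with a log2 fold change beyond 1 or -1 (edgeR's quasi-likelihood test, two-sided, Benjamini-Hochberg adjustment over all genes tested). Over all 14122 genes tested, 9.28% were called higher and 7.27% lower. The 18 comprised 9 Gst, 4 Ugt and 5 Sult genes. In 24 members the diets did not overlap with the No-Trp livers higher, against 23.6% of all genes, and in 1 with the No-Trp livers lower, against 25.0%. The median log2 fold change was 1.69 over the tested members and -0.0031 over all genes tested. Some members passed the filter on low counts only through the No-Trp libraries, so these counts and this median describe the tested members and not all 60. Of the 34 members with at least 10 reads in each of the 6 livers, 14 were called higher.

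**Figure D1:**
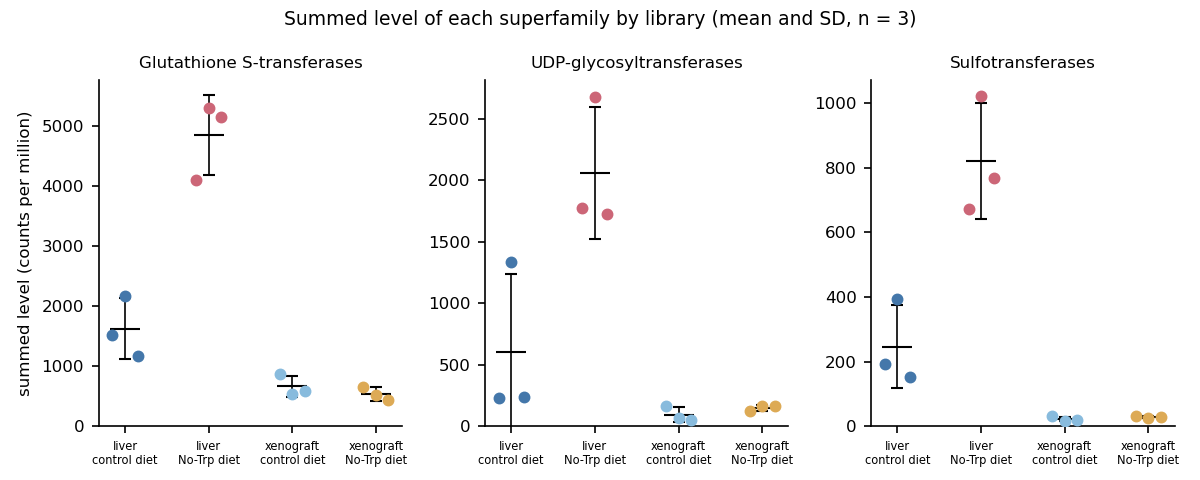
Summed level (CPM, linear axes from 0) of the 21 Gst, 20 Ugt and 19 Sult genes in each of the 12 libraries, with points for mice and bars for the mean and SD of 3 mice. The No-Trp livers lie above the control livers in each panel, and the xenografts of both diets lie below the No-Trp livers.

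The count of called members rested on single mice, while the median fold change of the tested members stayed positive. Without control liver 102, 34 members were called higher, against 13.6% of all genes tested, and all 18 were among them. The median log2 fold change of the tested members was then 2.76, against -0.02 over all genes. Without control liver 101 the count was 5, against 1.25% of all genes, and without No-Trp liver 105 it was 8, against 2.06%. Without No-Trp liver 107 it was 13, against 4.60%, and without No-Trp liver 108 it was 14, against 8.35%. Without control liver 103 no member was called, and 7 genes in all were called higher. In that fit 23 members had an unadjusted p under 0.05, of which 21 were among the 28 with such a p when all livers were used. In these 6 fits the median log2 fold change of the tested members was lowest, at 1.32, without control liver 103. None of the 18 called members changed sign, but they had been picked by their change in these same mice. Some members that were not called did, such as Ugt3a1, with log2 fold changes from -0.74 to 3.78.

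Among the glutathione S-transferases, 3 of the 7 genes of the mu class were called higher, and all 7 were tested. Gstm1, the main mu-class enzyme of mouse liver, was at 190.0, 449 and 193 CPM in the control livers and at 1304, 1271 and 1543 CPM in the No-Trp livers. The groups did not overlap, and control liver 102 was again the highest control (log2 fold change 2.33 ± 0.39, adjusted p = 0.0175). Gstm4 was at 5.74, 14.4 and 3.71 CPM on the control diet and at 51.9, 64.8 and 86.6 CPM on the No-Trp diet, also without overlap (log2 fold change 3.12 ± 0.51, adjusted p = 0.0179). Gstm7 was at 8.88, 16.2 and 5.91 CPM and 61.7, 94.0 and 35.2 CPM respectively, with No-Trp liver 108 the lowest of its group but still above every control (log2 fold change 2.65 ± 0.48, adjusted p = 0.0196). Of the rest, Gstm2, Gstm3 and Gstm6 had positive fold changes and Gstm5 a negative one, and none of these passed the thresholds. On the scale of CPM per kb of exon, which allows genes to be compared, Gstm1 led the superfamily with 188 in the control livers and 932 in the No-Trp livers. Its share of the summed Gst level per kb was 23.2% and 40.8%.

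The pi class consists of Gstp1, an abundant enzyme, and its near copy Gstp2. Gstp1 was at 315, 304 and 245 CPM in the control livers and at 514, 466 and 922 CPM in the No-Trp livers. No-Trp liver 108 was the highest, and the groups did not overlap (log2 fold change 1.15 ± 0.30, adjusted p = 0.0343). Gstp2 was far lower, at 1.45, 1.92 and 1.16 CPM and 9.95, 12.8 and 11.0 CPM. Its 3 libraries on each diet lay close together, and of all members it had the smallest adjusted p (log2 fold change 2.92 ± 0.30, adjusted p = 0.0107). Best-matching transcripts of both genes are 94.5% identical, and 54.3% of the 50-base stretches of Gstp2 also occur in another gene, so reads may be split between them. Their summed level, nearly all Gstp1, was 316, 306 and 246 CPM and 524, 478 and 933 CPM. The 250 bases before the start of both genes, from RefSeq on GRCm38.p6, are shown because the genes are adjacent copies on chromosome 19 that differed in level and in fold change. In an end-to-end alignment they match at 79.2% of positions, and none of the 4 motifs searched in all members was found in either, so no letters are in capitals. The search took exact letters only, so a variant of a motif that differs by 1 base would be missed. Both lie on the minus strand, Gstp1 at chr19:4037913-4038162 and Gstp2 at chr19:4042222-4042471.
Gstp1: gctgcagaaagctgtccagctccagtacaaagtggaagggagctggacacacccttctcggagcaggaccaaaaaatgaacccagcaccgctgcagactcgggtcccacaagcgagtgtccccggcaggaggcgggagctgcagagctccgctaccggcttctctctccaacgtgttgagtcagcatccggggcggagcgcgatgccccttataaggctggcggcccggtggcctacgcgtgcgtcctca
Gstp2: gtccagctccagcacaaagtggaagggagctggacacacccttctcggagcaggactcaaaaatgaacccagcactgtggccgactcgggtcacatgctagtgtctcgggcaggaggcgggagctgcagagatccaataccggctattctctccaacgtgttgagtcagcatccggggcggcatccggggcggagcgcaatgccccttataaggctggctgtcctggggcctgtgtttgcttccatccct

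In the alpha class, 1 of 4 genes was called. Gsta3, which conjugates the epoxide of aflatoxin in mice, was at 208, 527 and 144 CPM in the control livers and at 835, 1574 and 1103 CPM in the No-Trp livers. The groups did not overlap, with control liver 102 nearest to the No-Trp livers (log2 fold change 2.02 ± 0.52, adjusted p = 0.0333). Gsta4, which conjugates the lipid peroxidation product 4-hydroxynonenal, went the other way, at 105, 87.3 and 99.2 CPM and 64.4, 53.9 and 51.8 CPM. All No-Trp livers were below all controls, and the difference passed the p threshold but not the fold threshold (log2 fold change -0.76 ± 0.15, adjusted p = 0.0221). Of the 50-base stretches of Gsta1, 90.5% also occur in Gsta2 or other genes, and neither Gsta1 nor Gsta2 was called. The window before the start of Gsta3 (chr1:21240335-21240584, plus strand) and a window of Gstm7 (chr3:107931615-107931864, minus strand) are shown because they hold the core of the antioxidant response element, TGACNNNGC on either strand, given in capitals. This Gstm7 window precedes the downstream of its RefSeq starts. The match falls inside the gene as annotated in GENCODE M21, which starts at 107931817. The window before the upstream start (chr3:107931818-107932067) holds none of the motifs searched.
Gsta3: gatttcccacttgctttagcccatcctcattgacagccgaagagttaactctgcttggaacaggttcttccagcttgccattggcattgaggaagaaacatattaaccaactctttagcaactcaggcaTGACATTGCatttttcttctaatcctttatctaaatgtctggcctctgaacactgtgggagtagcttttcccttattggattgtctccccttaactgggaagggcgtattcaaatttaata
Gstm7: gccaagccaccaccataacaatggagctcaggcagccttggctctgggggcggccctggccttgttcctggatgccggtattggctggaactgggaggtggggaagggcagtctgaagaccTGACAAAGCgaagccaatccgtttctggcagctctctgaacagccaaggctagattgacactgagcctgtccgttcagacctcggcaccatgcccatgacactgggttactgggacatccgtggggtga

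In the zeta, theta and kappa classes 1 member each was called, and in the omega class none. Gstz1, the maleylacetoacetate isomerase of tyrosine breakdown, was at 248, 321 and 153 CPM in the control livers and at 649, 1086 and 584 CPM in the No-Trp livers. All No-Trp livers were above the controls (log2 fold change 1.71 ± 0.36, adjusted p = 0.0236). Gstt2, of the theta class, was at 22.6, 35.7 and 18.2 CPM and 76.0, 112 and 148 CPM, without overlap (log2 fold change 2.16 ± 0.33, adjusted p = 0.0163). Gstk1, the kappa enzyme of mitochondria and peroxisomes, was at 16.1, 38.5 and 10.4 CPM and 73.7, 129.7 and 69.1 CPM, and control liver 102 was the highest control (log2 fold change 2.10 ± 0.51, adjusted p = 0.0307). A pair of abundant members was not called, described here as the leading genes per kb of their classes in the control livers. Gsto1, an omega-class reductase, was at 160.5, 139 and 166 CPM and 160.2, 136 and 246 CPM, with overlapping groups (log2 fold change 0.24 ± 0.24, adjusted p = 0.486). Gstt1 was at 136, 102 and 66.7 CPM and 99.9, 144 and 107 CPM, which also overlapped (log2 fold change 0.22 ± 0.28, adjusted p = 0.574). Gstt4 held 1 read in all livers and Gsto2 25, and both were left out of the liver test.

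**Figure D2:**
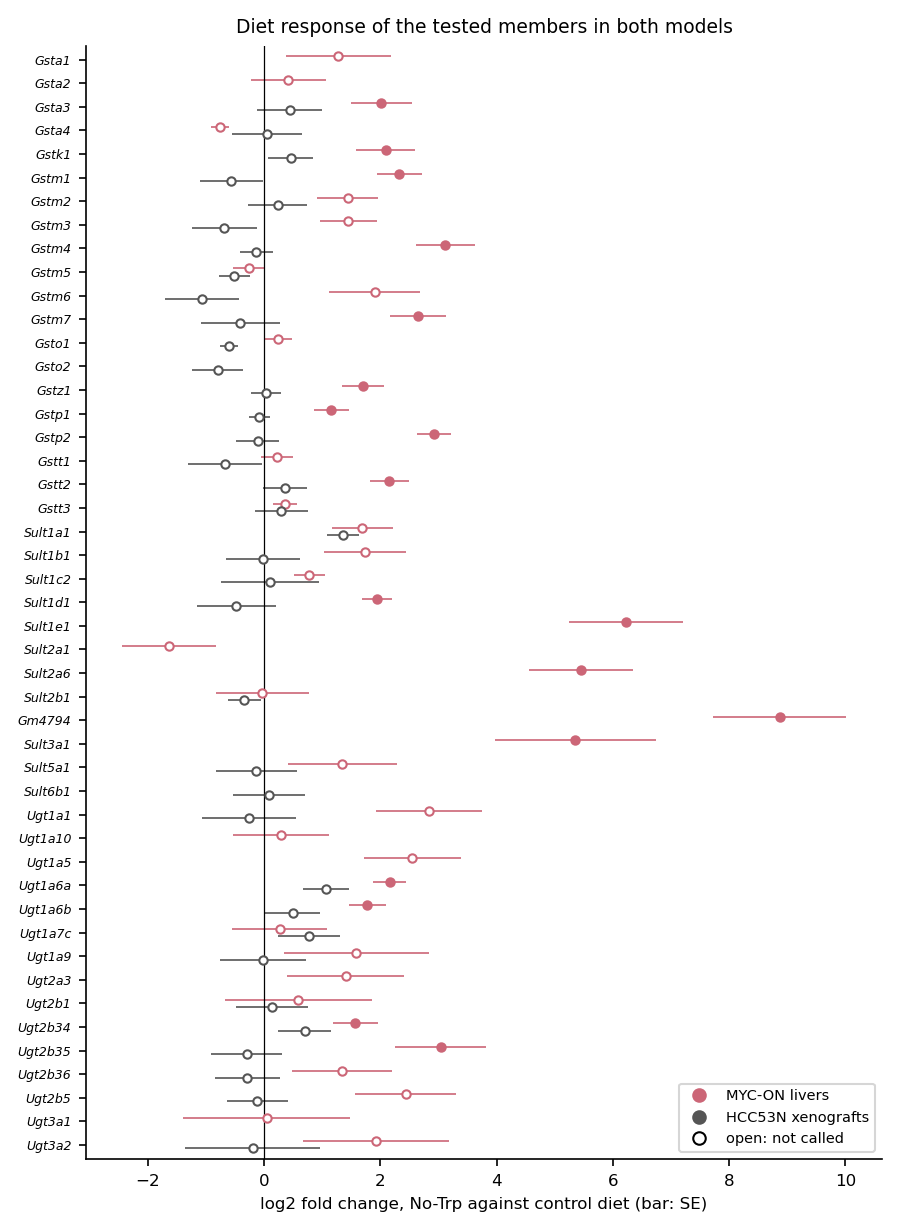
Log2 fold change of the No-Trp diet against the control diet (x axis, bars for the SE) for each member tested in at least 1 model, in MYC-ON livers and HCC53N xenografts, with filled points for called members. Filled points are present for 18 members in the livers, all to the right of 0, and for none in the xenografts.

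Of 15 tested UDP-glycosyltransferases, 4 were called higher, and mouse 102 was the highest control liver in each of them. Ugt1a6a, which glucuronidates phenols, was at 4.34, 7.89 and 4.87 CPM in the control livers and at 21.6, 25.0 and 28.9 CPM in the No-Trp livers. The groups did not overlap, and mouse 102 was closer to the other controls than to the No-Trp livers (log2 fold change 2.16 ± 0.28, adjusted p = 0.0136). The neighbouring Ugt1a6b was at 3.67, 8.11 and 6.59 CPM and 22.3, 21.8 and 18.2 CPM, also without overlap (log2 fold change 1.78 ± 0.32, adjusted p = 0.0191). All 8 Ugt1a rows share 50.3% to 60.6% of their exon bases on the same strand, since the first exons of this locus are spliced to common last exons, and reads there cannot be given to 1 member. Ugt2b35 was at 7.19, 66.8 and 14.5 CPM and 234, 269.5 and 209.8 CPM, and the groups did not overlap although mouse 102 was high (log2 fold change 3.04 ± 0.79, adjusted p = 0.0357). Ugt2b34 was at 131, 311 and 125 CPM and 483, 673 and 506 CPM, again with mouse 102 between the other controls and the No-Trp livers (log2 fold change 1.57 ± 0.39, adjusted p = 0.0302).

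Other abundant Ugt genes were not called. Ugt2b5, which led the superfamily per kb in the No-Trp livers (240.3 CPM per kb, 30.5% of the Ugt sum), was at 25.6, 204 and 22.2 CPM in the control livers and at 373, 443 and 524 CPM in the No-Trp livers. It did not overlap between the diets, but its adjusted p missed the threshold (log2 fold change 2.44 ± 0.87, adjusted p = 0.0788). Ugt2b36, the leading gene per kb in the control livers, was at 31.7, 252 and 25.1 CPM and 209, 329 and 231 CPM. Mouse 102 lay within the range of the No-Trp livers (log2 fold change 1.34 ± 0.86, adjusted p = 0.276). The same held for Ugt2a3, at 5.36, 64.1 and 4.91 CPM and 45.4, 101 and 46.2 CPM, for Ugt1a9, at 3.33, 93.4 and 10.1 CPM and 99.2, 195 and 19.7 CPM, and for Ugt3a2, at 5.65, 119 and 9.30 CPM and 141, 320.4 and 37.2 CPM. In each of these 3 genes the other 2 controls were below every No-Trp liver. Ugt1a9 leads the Ugt1a family per kb in livers, and Ugt3a enzymes use sugars other than glucuronic acid.

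A further 4 genes were picked out after their values were seen. Ugt2b1 was at 4.39, 154 and 5.47 CPM in the control livers and at 55.3, 131 and 55.2 CPM in the No-Trp livers, so that mouse 102 exceeded every other liver (log2 fold change 0.59 ± 1.27, adjusted p = 0.753). Ugt2b38 was at 0, 4.06 and 0 CPM and 0.0572, 0.246 and 0 CPM, and Ugt2b37 at 0, 2.48 and 0.0799 CPM and 0.400, 0.246 and 0.155 CPM. Mouse 102 held 72 of the 77 Ugt2b38 reads and 44 of the 59 Ugt2b37 reads of the 6 livers, and neither gene was tested. Ugt1a2, Ugt2a1 and Ugt2a2 held 14, 5 and 0 reads over the 6 livers and were not tested either. Best-matching transcripts of Ugt2b38 and Ugt2b5 are 95.6% identical. Ugt1a1, the enzyme that glucuronidates bilirubin, was at 1.79, 27.7 and 9.42 CPM and 77.6, 149.6 and 45.6 CPM, without overlap and with an adjusted p above the threshold (log2 fold change 2.84 ± 0.92, adjusted p = 0.0606). Without mouse 102 the log2 fold change was 4.03 for Ugt2b1 (adjusted p = 0.00324) and 4.23 for Ugt2b5 (adjusted p = 0.000657), and both were called, as was Ugt1a1 (adjusted p = 0.0160). Ugt2b36 (3.18), Ugt2a3 (3.65), Ugt1a9 (3.95), Ugt3a2 (4.47) and Ugt3a1 (3.78, from 0.05 with all livers) were called in that fit as well.

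**Figure D3:**
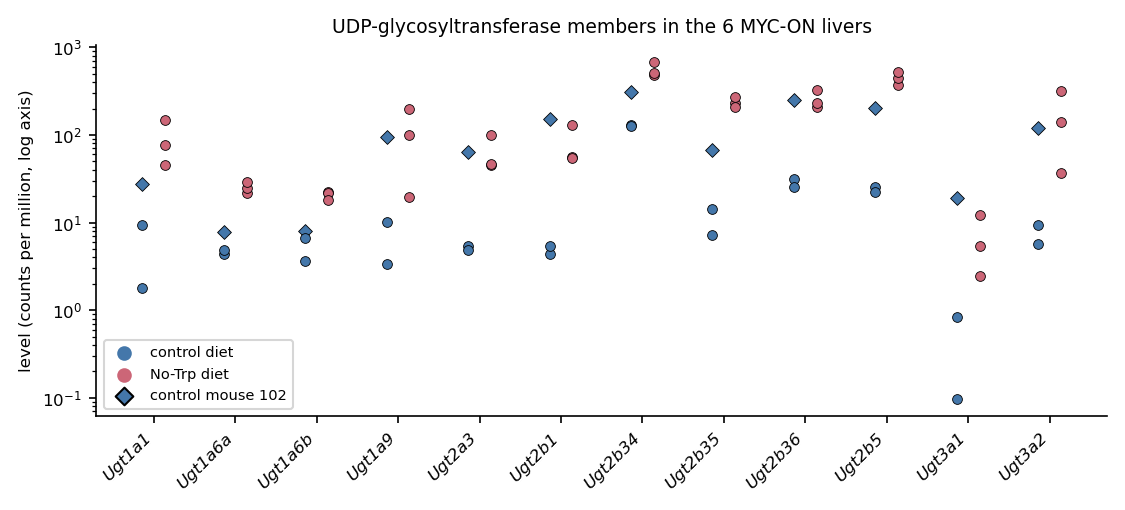
Level (CPM, log axis) of 12 Ugt genes in the 6 MYC-ON livers, with a diamond for control mouse 102. The diamond lies among or above the No-Trp livers for Ugt1a9, Ugt2a3, Ugt2b1, Ugt2b36, Ugt3a1 and Ugt3a2, and below all of them for Ugt1a1, Ugt1a6a, Ugt1a6b, Ugt2b34, Ugt2b35 and Ugt2b5.

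Sulfotransferases showed the largest fold changes, in 4 members that were almost silent on the control diet. These 4 passed the filter on low counts only through the No-Trp livers, where they were high. They make up all called Sult genes but Sult1d1, and their adjusted p-values are no support apart from that selection. Gm4794 held 1 read in all 3 control livers and 496 in the No-Trp livers, or 0, 0 and 0.0399 CPM and 5.55, 21.3 and 4.12 CPM. Every No-Trp liver was above the controls, with mouse 107 the highest. The ratio of its reads per effective library size was 676, with a 95% interval of 121 to 26750 that covers counting error only (adjusted p = 0.0136). Sult1e1, the estrogen sulfotransferase, held 3 reads in the control livers and 192 in the No-Trp livers, or 0, 0.113 and 0.0399 CPM and 2.23, 7.93 and 1.87 CPM. Mouse 107 was again the highest, and the ratio was 87.2 (counting interval 29.4 to 427, adjusted p = 0.0168). Sult3a1, which sulfates amines and is known to be higher in the livers of female than of male mice, was at 0.483, 0.0563 and 0 CPM and 5.03, 16.2 and 0.855 CPM. It did not overlap, but No-Trp liver 108 was close to control liver 101 (log2 fold change 5.36 ± 1.39, adjusted p = 0.0357), and the call was lost when a resubmission mark, carried by 4 of the 12 libraries and not explained in the sources used here, was added as a covariate (adjusted p = 0.0743). Sult2a6, a hydroxysteroid and bile acid sulfotransferase, was at 0.0483, 0.169 and 0.160 CPM and 2.06, 11.9 and 3.26 CPM, without overlap (log2 fold change 5.46 ± 0.90, adjusted p = 0.0174).

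Levels of these 4 genes stayed low in absolute terms. Sult3a1 and Gm4794 together reached 10.6, 37.5 and 4.97 CPM in the No-Trp livers, from 0.483, 0.0564 and 0.0399 CPM. Their best-matching transcripts are 91.1% identical, but only 7.72% of the 50-base stretches of Gm4794 occur in Sult3a1, so most reads can be told apart. The windows before the starts of both genes, on opposite strands of chromosome 10 (Sult3a1 at chr10:33857472-33857721, plus strand, and Gm4794 at chr10:33782116-33782365, minus strand), are shown because the copies moved together. They match at 50.4% of the positions of an end-to-end alignment, so the likeness of the transcripts does not extend to these windows. Capitals mark a STAT5 core, TTCNNNGAA, in Sult3a1.
Sult3a1: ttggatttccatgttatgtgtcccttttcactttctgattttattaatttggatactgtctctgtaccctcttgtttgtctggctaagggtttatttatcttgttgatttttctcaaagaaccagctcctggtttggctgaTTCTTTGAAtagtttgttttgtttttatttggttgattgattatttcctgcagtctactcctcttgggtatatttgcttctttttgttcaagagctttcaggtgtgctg
Gm4794: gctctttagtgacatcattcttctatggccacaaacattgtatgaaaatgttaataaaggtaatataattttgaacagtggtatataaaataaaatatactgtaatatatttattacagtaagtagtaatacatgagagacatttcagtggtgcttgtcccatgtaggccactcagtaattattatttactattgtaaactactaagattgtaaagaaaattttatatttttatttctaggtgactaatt

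Abundant sulfotransferases were Sult1a1 and Sult1d1. Sult1d1, which sulfates catecholamines and other phenols, was at 77.7, 132 and 75.6 CPM in the control livers and at 325, 404 and 354 CPM in the No-Trp livers. Its groups were tight and far apart (log2 fold change 1.95 ± 0.26, adjusted p = 0.0136). Sult1a1, the main phenol sulfotransferase and the leading Sult gene per kb in both diets (79.8 and 253 CPM per kb), was at 84.7, 223 and 53.4 CPM and 297, 501 and 347 CPM. The diets did not overlap, and its adjusted p lay just above the threshold (log2 fold change 1.69 ± 0.52, adjusted p = 0.0538). Sult2a1, the leading Sult2 gene per kb in control livers and also known to be higher in females, was at 11.9, 2.93 and 7.79 CPM and 1.94, 0.492 and 4.90 CPM. The groups overlapped, and the fold change was not called (log2 fold change -1.63 ± 0.80, adjusted p = 0.168). The sum of Sult2a1 to Sult2a7 was 12.8, 4.34 and 8.47 CPM and 4.58, 13.7 and 10.3 CPM, which overlapped. Sult2a6 and Sult2a1 thus had fold changes of opposite sign. Sult1c1 held no read in any library, and Sult2a2, Sult2a3, Sult2a4, Sult2a5, Sult2a7, Sult4a1 and Sult6b1 held 2 to 50 reads over the 6 livers and were not tested.

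Other liver genes with a known sex bias were set beside the Sult genes. Of 13 tested female-biased genes outside these families, 9 were called higher in the No-Trp livers, against 9.28% of all genes tested. Among the 9 were Acot3 (log2 fold change 3.39 ± 0.23, adjusted p = 0.00279), Cyp2b9 (6.70) and Cyp2b13 (6.65). The female-biased genes summed to 83.3 to 117 CPM in the control livers and to 945 to 2024 CPM in the No-Trp livers. Of 14 tested male-biased genes none was called, and they summed to 232, 3926 and 156 CPM and 618, 757 and 533 CPM. Control liver 102 was far above every other liver, while control livers 101 and 103 were below every No-Trp liver. The contrast with the female-biased genes thus rests on mouse 102. Their part in the levels of the Sult genes was not tested.

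Hepatocyte markers moved with the conjugation genes. The 13 markers summed to 16541, 45887 and 13453 CPM in the control livers and to 65837, 137488 and 55702 CPM in the No-Trp livers. All 12 tested markers had positive fold changes, and 3 were called higher. Their median log2 fold change was 1.27, against 1.69 over the tested members. Alb made up a large part of the marker sums, so a ratio to them follows Alb more than the other markers. Markers of dividing cells fell, from 1745 to 1944 CPM to 191 to 620.3 CPM summed over 10 genes, of which 8 were called lower. Markers of red cell precursors were at 56.4, 566 and 373 CPM and 15.7, 20.3 and 24.5 CPM, with 4 of 5 tested genes called lower. Fetal liver and tumor genes, 8 in all, summed to 29539, 23436 and 27551 CPM in the control livers. In the No-Trp livers they summed to 11702, 2302 and 13701 CPM, and none of them was called. Among all genes tested in the livers, 9.28% were called higher and 7.27% lower. When the members were expressed per 1000 CPM of hepatocyte markers, a reading chosen after the values were seen, the diets overlapped. The Gst sum was then 92.1, 47.5 and 87.7 in the control livers and 62.3, 38.6 and 92.7 in the No-Trp livers. The Ugt sum was 13.7, 29.1 and 17.8 and 26.9, 19.5 and 31.0, and the Sult sum 11.7, 8.57 and 11.5 and 10.2, 7.42 and 13.8. Of the 18 called members, 7 did not overlap on this scale with the No-Trp livers higher (Gm4794, Sult1e1, Sult2a6, Gstm4, Gstm7, Gstp2 and Ugt2b35), and 11 overlapped. Over all genes tested, 1.42% did not overlap with the No-Trp livers higher and 62.5% with the No-Trp livers lower. The 18 had been called as higher in these same livers, so their count is not comparable with these shares. Gstp2 went from 0.0875, 0.0418 and 0.0861 to 0.151, 0.0930 and 0.198 CPM per 1000 CPM of markers, and control mouse 102 was its lowest library.

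**Figure D4:**
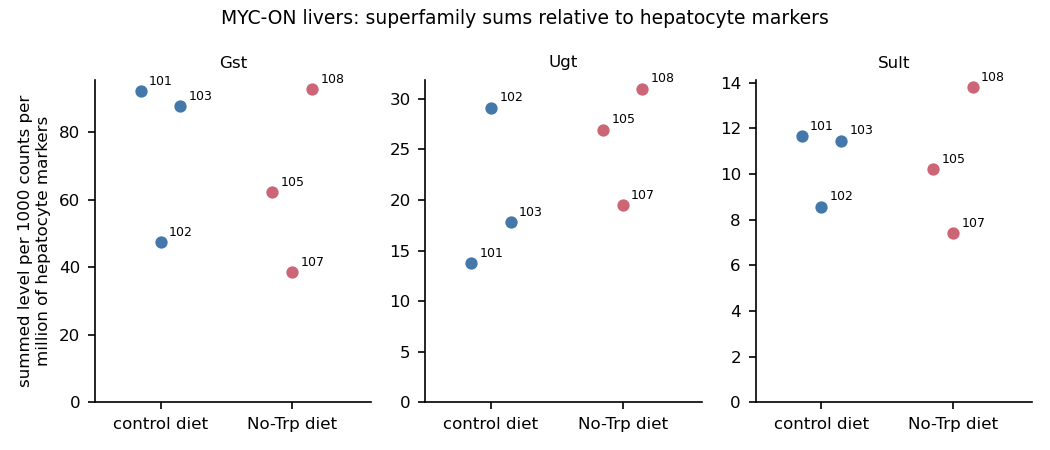
Summed Gst, Ugt and Sult levels in CPM per 1000 CPM of hepatocyte markers (linear axes from 0) in the 6 MYC-ON livers, each point labelled with its mouse. The diets overlap in all 3 panels, and mouse 107 has the lowest Gst and Sult values.

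In the HCC53N xenografts, no conjugation gene was called in either direction on the No-Trp diet. The 60 members summed to 1066, 626 and 664 CPM in the control tumors and to 814, 717 and 628 CPM in the No-Trp tumors, with overlap between the groups. Of 36 tested members 15 had positive and 21 negative fold changes, and the median was -0.09 against -0.0045 over all genes. Few genes were called in this comparison at all, 0.245% of 14704 higher and 0.116% lower. The other 24 members held 0 to 39 reads over the 6 tumors, 10 of them none, and were not tested. Without overlap between the diets, 4 members were higher and 1 lower, against 10.8% and 11.8% of all genes. An unadjusted p under 0.05 was found for 3 members. Sult1a1 had the smallest adjusted p, at 6.03, 4.23 and 4.20 CPM on the control diet and 11.0, 11.1 and 15.3 CPM on the No-Trp diet. All No-Trp tumors were above all controls (log2 fold change 1.36 ± 0.28, adjusted p = 0.0772), and DESeq2 called it, with a log2 fold change of 1.37 and an adjusted p of 0.000531. Ugt1a6a was at 3.24, 2.55 and 1.58 CPM and 7.29, 4.34 and 4.03 CPM, also without overlap (log2 fold change 1.07 ± 0.40, adjusted p = 0.238). Gsto1, the leading Gst gene per kb in the xenografts, was at 311, 298 and 278 CPM and 218, 206 and 166 CPM, with every No-Trp tumor below every control (log2 fold change -0.60 ± 0.15, adjusted p = 0.122).

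Control xenograft 40 was the highest of its group for several members. Its diet is known from its labels, and the name of its deposited file, unlike those of the other tumors, does not carry its number. Without it no member was called in the xenografts either, where 0.232% of all genes were called higher and 0.285% lower. Gsta4 was at 135, 32.6 and 43.6 CPM on the control diet and 119.9, 55.4 and 46.8 CPM on the No-Trp diet, so that tumors 40 and 35 were high and the others were not. Gstm1 was at 138, 34.8 and 40.8 CPM and 65.5, 41.7 and 38.4 CPM, and Gstt1 at 23.1, 5.23 and 4.02 CPM and 7.40, 5.77 and 7.25 CPM. Tumor 40 was the highest library in each of these, and its hepatocyte markers were at 2332 CPM against 834 to 1815 CPM in the other tumors. Adipocyte markers differed between the diets, with 16.0 to 73.7 CPM in the control tumors and 433 to 939.8 CPM in the No-Trp tumors, where 5 of 8 were called higher. Mgst1, a microsomal glutathione transferase that is no member, was called higher in the same tumors, from 11.8, 16.8 and 12.6 CPM to 54.3, 39.4 and 42.4 CPM (log2 fold change 1.71 ± 0.21, adjusted p = 0.0206). The part of fat cells in these levels was not tested.

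**Figure D5:**
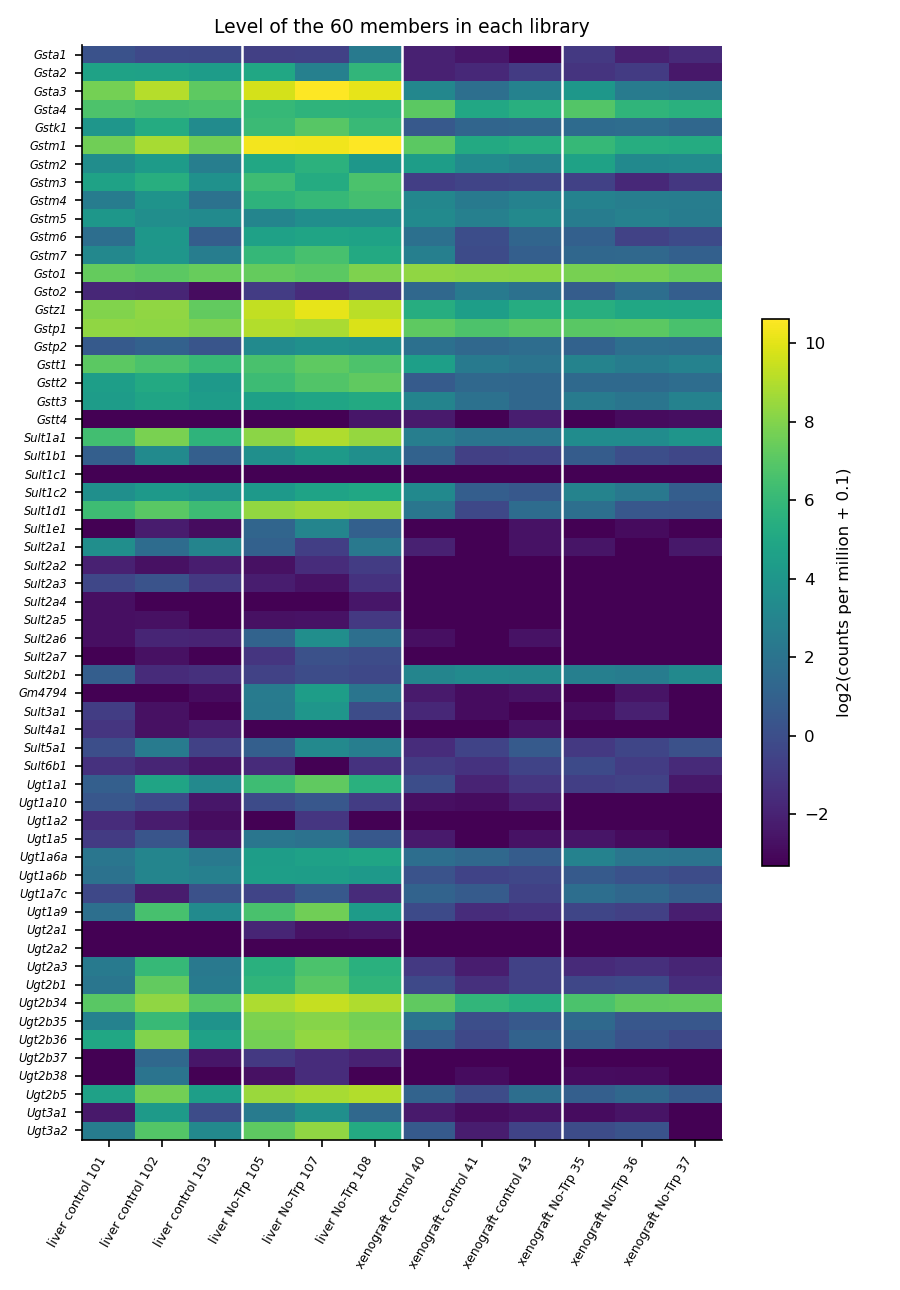
Level of all 60 members in each of the 12 libraries as log2(CPM + 0.1), with members in rows grouped by family and libraries in columns grouped by model and diet. Most rows are brighter in the No-Trp livers than in the control livers and dark in the xenografts, with Gsto1, Gstp1, Gsta4, Gstm1 and Ugt2b34 among the brighter rows there.

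The difference between the models in the diet response was tested with the interaction term of 1 fit over all 12 libraries. It was called for 9 of 47 tested members, all with a smaller or opposite response in the xenografts, and for 0 in the other direction. Of all 15472 genes, 6.01% were called in this direction and 6.7% in the other. By adjusted p the leading members were Gstp2 (log2 difference -3.00 ± 0.44, adjusted p = 0.00540), Gstm4 (-3.22 ± 0.58, adjusted p = 0.00893), Gm4794, Gstt2 (-1.77 ± 0.43, adjusted p = 0.0214), Gstm1 (-2.86 ± 0.72, adjusted p = 0.0244) and Gstz1 (-1.63 ± 0.46, adjusted p = 0.0350). Gstp2 was at 3.38, 2.51 and 3.05 CPM in the control xenografts and 1.96, 3.37 and 3.05 CPM in the No-Trp xenografts, and Gstm4 at 8.58, 5.23 and 7.13 CPM and 7.11, 6.17 and 5.94 CPM. Both overlapped between the diets in the tumors, unlike in the livers. Gm4794 held 4 reads in the control and 2 in the No-Trp xenografts, so its fitted difference has no fixed size (adjusted p = 0.0114). None of the 15 tested Ugt genes was called. Counts in this comparison also rested on single mice. Without control liver 102 the count was 21, against 8.75% of all genes, without 103 it was 3, against 2.86%, and without 101 it was 4, against 4.53%. Without tumors 36 or 37 it was 4, against 3.89% and 3.81%, and without tumors 40 or 43 it was 5, against 4.24% and 3.90%. With the resubmission mark as a covariate, the calls of Gstt2 (adjusted p = 0.0532) and Gstp1 (adjusted p = 0.0855) were lost and 4 others were gained (Sult1d1, Ugt1a1, Ugt1a6b and Ugt2b35). Among the tumors, controls 41 and 43 carry the mark and no No-Trp tumor does. The mark is therefore largely confounded with diet in the xenografts. Gstp2 and Gstm4 were called in all 12 fits that left out 1 mouse. So was Gm4794, but it passed the filter on low counts only through the No-Trp livers. Its calls are therefore no support apart from that selection.

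Levels were lower in the xenografts than in the livers for most members. On the control diet, 31 of 47 tested members were called lower and 2 higher, where 20.2% and 23.3% of all genes were called. On the No-Trp diet 39 were called lower and 2 higher, against 19.1% and 24.5%. The 39 include Gm4794, Sult1e1, Sult2a6 and Sult3a1, which passed the filter on low counts only through the No-Trp livers, where they were high. Their calls on that diet are no support apart from that selection. Tissue, genotype, host strain, sex and site differ together between the models and cannot be told apart. Among the Gst genes, Gsta3 was at 8.78, 3.27 and 7.19 CPM in the control xenografts (log2 fold change -5.52 ± 0.69, adjusted p = 0.0000384, xenografts against livers), and Gstz1 at 41.2, 22.1 and 39.3 CPM (log2 fold change -2.81 ± 0.35, adjusted p = 0.0000246). Gstp1, which led with Gsto1, was less far from its liver level, at 144, 106 and 133 CPM (log2 fold change -1.18 ± 0.26, adjusted p = 0.00181). Per kb, Gsto1 made 38.7% and Gstp1 21.8% of the Gst sum of the control xenografts. Of the 15 tested Ugt genes, 14 were called lower on the control diet. Ugt2b34 made 80.0% of the Ugt sum per kb in the control xenografts and 85.5% in the No-Trp xenografts, at 147, 56.7 and 43.2 CPM and 101, 149 and 154 CPM. In the control livers its share was 19.4%. Gsto2 and Sult2b1, which sulfates cholesterol, were the 2 members called higher in the xenografts on both diets. Sult2b1 was at 8.14, 10.2 and 8.84 CPM in the control xenografts against 1.69, 0.225 and 0.280 CPM in the control livers, without overlap (log2 fold change 3.62 ± 0.62, adjusted p = 0.000324). Gsto2, named after its values were seen, was at 2.50, 5.23 and 3.60 CPM against 0.193, 0.169 and 0.0399 CPM (log2 fold change 4.81 ± 0.61, adjusted p = 0.0000300).

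Genes that supply the cofactors or act next to the conjugation enzymes were examined by lists, in the livers first. There, 9.28% of all genes tested were called higher and 7.27% lower. Of 11 genes of glutathione supply, 2 were called higher, namely Gclc, the catalytic subunit of the first step of glutathione synthesis (log2 fold change 1.56 ± 0.33, adjusted p = 0.0236), and Cth, which makes cysteine (1.21). Of 8 genes of UDP-glucuronic acid supply, 3 were called higher and 1 lower. They were Slc35d1, which carries the donor into the endoplasmic reticulum (log2 fold change 1.43 ± 0.19, adjusted p = 0.0138), and Ugp2 (2.03), which makes UDP-glucose, while the third was Ugdh, which oxidizes it, and the one that fell was Pgm1. Of 13 genes of sulfate donor supply, 2 were called higher, Cdo1 (3.15) and Papss2 (log2 fold change 2.95 ± 0.75, adjusted p = 0.0338), which makes PAPS. Of 10 tested microsomal and other glutathione enzymes and of 3 other UDP-glycosyltransferases, none was called. Other conjugation and related enzymes were called higher in 8 of 21, led by Nqo1, a quinone reductase (log2 fold change 3.51 ± 0.38, adjusted p = 0.0110), Tpmt (2.22) and Gnmt (2.56). Of 7 efflux transporters of conjugates, Abcc2 of the bile canaliculus was called higher (log2 fold change 2.68 ± 0.48, adjusted p = 0.0196) and Abcc1 lower (-1.29).

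Regulators of these genes were called higher in 8 of 18, where 9.28% of all genes tested were called higher. Nr1i2, which encodes the xenobiotic receptor PXR, had a log2 fold change of 1.43, Ahr, the aryl hydrocarbon receptor, one of 1.43, and Nr1h4, the bile acid receptor FXR, one of 2.02. Inducible phase I genes were called higher in 8 of 14, with Cyp2b9 and Cyp2b13 shared with the female-biased list above. Of 12 targets of the oxidative stress regulator NRF2 outside the families, 4 were called higher and 1 lower, with Nqo1 leading and G6pdx lower (-1.43). Nqo1 is shared with the list of other conjugation and related enzymes above, so the counts of these lists are not separate observations. In the xenografts none of the genes in these lists was called except Mgst1. The median log2 fold changes of the lists of cofactor supply in the livers were 0.40, 0.86 and 0.37 in the order above, against -0.0031 over all genes.

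Motifs were searched in the 250 bases before the start of 52 members that had a window in RefSeq, on both strands, with no overlap between the motifs in the windows shown. A gene was counted where any of its windows held the motif. The core of the antioxidant response element was found in 3 members (Gsta3, Gstm5 and Gstm7), or 5.77%, against 11.5% of 27025 genes. In Gstm7 the match lies downstream of the GENCODE M21 start of the gene. A STAT5 core was found in 4 members, or 7.69%, against 8.13%, and the E-box CACGTG in none, against 6.86%. The HNF1 motif with its spacer was found in 8 members, or 15.4%, against 0.440% of all genes. These were Sult1d1, Sult2a3, Sult2a4, Sult2a5, Sult2a6, Ugt1a1, Ugt1a9 and Ugt1a10, of which Sult1d1 and Sult2a6 were called in the livers. HNF1 is a hepatocyte transcription factor, and the Sult2a windows belong to close copies of 1 gene, so the 8 are not independent. Windows of 3 of them are shown with the motif in capitals, for Sult1d1 at chr5:87569007-87569256 and Sult2a6 at chr7:14254871-14255120, both on the minus strand, and for Ugt1a1 at chr1:88211709-88211958 on the plus strand. A match of letters does not show that a factor binds there, and variants of a motif were not searched, so a missing match does not show the opposite.
Sult1d1: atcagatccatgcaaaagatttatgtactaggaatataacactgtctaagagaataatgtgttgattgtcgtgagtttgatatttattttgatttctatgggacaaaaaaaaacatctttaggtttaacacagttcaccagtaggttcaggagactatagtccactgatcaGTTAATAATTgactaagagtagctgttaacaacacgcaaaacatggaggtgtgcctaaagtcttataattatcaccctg
Sult2a6: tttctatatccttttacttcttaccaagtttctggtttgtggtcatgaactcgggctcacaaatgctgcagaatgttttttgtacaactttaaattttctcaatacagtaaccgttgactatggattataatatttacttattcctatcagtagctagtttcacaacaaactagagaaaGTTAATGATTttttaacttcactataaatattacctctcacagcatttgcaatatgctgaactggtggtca
Ugt1a1: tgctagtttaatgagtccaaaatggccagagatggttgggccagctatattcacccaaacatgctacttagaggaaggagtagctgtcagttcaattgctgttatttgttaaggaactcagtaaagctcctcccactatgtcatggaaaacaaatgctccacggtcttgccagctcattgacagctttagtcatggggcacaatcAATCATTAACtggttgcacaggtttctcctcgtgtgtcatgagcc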

How the data were processed

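The deposited values are raw counts of reads per gene, made by the authors. Their reads were trimmed (Trim Galore), mapped to mm10 (STAR 2.7.2b) and assigned to genes by HTSeq. The strand setting and the rule for overlapping genes are not given in the sources used here. Reads that the counting left out (24.7% to 39.4% of a library) entered no library size or test. Counting intervals cover counting error only.

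The counts of each model were fitted over all genes by the quasi-likelihood functions glmQLFit (robust) and glmQLFTest of edgeR 4.0.16 (R 4.3.3), after filterByExpr and TMM scaling, with two-sided tests. The difference between models, and the models themselves, were tested in 1 fit over 12 libraries. The error beside a log2 fold change is its SE. Adjusted p-values are Benjamini-Hochberg values over every gene tested, and the thresholds are those of the study's methods. In simulated liver counts of 13990 genes, 89% of log2 changes of 2 in size and 95% of those of 3 were recovered. For changes of 2 in size, 82% were recovered in the xenografts and 64% in the interaction. Changes were placed only in genes with many reads, so these shares do not cover members with few reads. CPM were computed from the effective sizes of the fit over 12 libraries, and levels per kb with exon lengths of GENCODE M21, in which all 60 members were found. Promoter windows are from RefSeq (GRCm38.p6). A window was used for 52 members.

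The members and gene lists were chosen with earlier results of these data known. Named with values were up to 4 called rises and 3 falls per family in the livers, every member called in the xenografts, up to 6 members called in the interaction, the leading member per kb of each family and Gm4794, with exceptions stated. Of genes outside the families at most 3 per list were given with values, apart from markers used as checks. Alternatives were other scaling factors (RLE, library totals), other filters on low counts, leaving out Rn45s (precursor ribosomal RNA, 12.1% of the reads of control liver 101), DESeq2 1.42.0, 1 fit over 12 libraries, the adjusted p alone, leaving out each mouse, and a covariate for the resubmission mark that 4 libraries carry (livers 101 and 108, tumors 41 and 43). No source says that replicates were prepared separately beyond being different mice.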

Additional observations from a re-analysis of the deposited data

Results flagged for a closer look

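For 9 members the response to the No-Trp diet differed between the models by the interaction test, with the xenografts below the livers (edgeR, adjusted p of at most 0.05). The log2 difference was -3.00 for Gstp2, -3.22 for Gstm4, -1.77 for Gstt2, -2.86 for Gstm1, -1.63 for Gstz1, -1.20 for Gstp1 and -3.02 for Gstm7. It was -10.14 for Gm4794 and -8.16 for Sult2a6, which held 6 and 2 reads over the 6 xenografts, so that these sizes depend on the fit and are no bounds. Both genes passed the filter on low counts only through the No-Trp livers, so their calls are no support apart from that selection. In the xenografts themselves, Gstm7 was at 6.47, 0.798 and 1.77 CPM on the control diet and 2.43, 2.57 and 1.87 CPM on the No-Trp diet, with tumor 40 the highest.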

How the results depend on the processing

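No result changed sign among those called, which were picked from these same libraries. In the livers, 18 members were called higher, and leaving out each mouse gave 0 to 34, against 0.0492% to 13.6% of all genes. DESeq2 called 27 (8.73% of all genes), a single fit over 12 libraries 23 (9.32%) and library totals 16 (5.18%), against 9.28% as reported. The resubmission covariate also left 18, with Sult3a1 lost and Ugt1a1 gained. A member was called lower (Gsta4, 1 of 45) with the adjusted p alone, against 1696 of 14122 genes. Library totals also called it lower, against 10.8% of all genes, and moved the median of all genes to -0.30. In the xenografts DESeq2 called 1 member higher, against 1.28% of all genes. In the comparison of diet responses, DESeq2 called 17 members lower in the xenografts (7.33% of all genes) and the resubmission covariate 11 (7.03%). Leaving out each mouse gave 3 to 21 lower, against 2.86% to 8.75% of all genes, and 0 to 1 higher. The one was Gsta4 without tumor 40, where 4.59% of all genes were called higher. In xenografts against livers on the control diet, 4 members were higher with the adjusted p alone, against 4761 of 15472 genes. With library totals 4 were higher, against 25.8% of all genes. With at least 10 counts in every library, which left 26 members, 1 was higher and 19 lower on the control diet, against 21.1% and 18.5% of all genes. The No-Trp diet gave 0 higher and 22 lower, against 21.7% and 18%. Library totals moved the median of all genes by 0.11 in the xenografts and to 0.41 in the comparison of responses. Beyond fewer genes or mice in a fit, the cause was not tested. No paired analysis was possible because the groups share no animal numbers. With 3 mice a group, a permutation test of 1 gene cannot go below 0.1. Members under about 10 reads are limited by depth.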
